A study of Mus musculus with 8 samples.

Results

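The cytosolic ribosomal protein genes of mouse embryonic fibroblasts were examined in RNA bound to chromatin and in RNA of the cytoplasm, with and without heat shock. The genes were taken as a list of 60 Ensembl identifiers, 31 for the small ribosomal subunit (Rps2 to Rps29 and Rpsa) and 29 for the large subunit (a subset of Rpl3 to Rpl38, and Rplp0 to Rplp2). Of these, 59 had a value in every library, 31 small-subunit and 28 large-subunit genes, out of 28785 genes listed in any library. The remaining large-subunit identifier had no value and is not analysed here. The rule of the list is membership in the gene family and does not itself use a measured value.

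Total RNA was sequenced from fibroblasts of strain C57BL/6J with the genotype TSC2+/+, which all groups share. Control cells were left unstressed, and stressed cells were kept at 42 °C for 1 h and then returned to 37 °C for 3 h. Each condition was split into a cytoplasmic supernatant and a pellet that remained after nuclei were lysed in the presence of urea, the latter taken as chromatin, and short RNA fragments were then size-selected on a gel. The 4 groups were therefore chromatin control, chromatin after heat shock, cytoplasm control and cytoplasm after heat shock, each with 1 library. The other 4 samples of the series, an m6A immunoprecipitation of chromatin RNA and its inputs, are not analysed here. With 1 library per group no test across samples exists, no difference below has a replicate check, and separate cultures are not named. A lower value in such bulk RNA can mean fewer cells with the RNA or less RNA per cell. As values are scaled to library depth, it can also mean more of other RNAs, and these cannot be told apart.

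Ribosomal proteins assemble with ribosomal RNA in the nucleolus into the small subunit, which holds and decodes the mRNA, and the large subunit, which joins amino acids. Their mRNAs are among the most abundant in growing cells. Most begin with a pyrimidine tract at the cap, the TOP motif, through which the mTOR pathway and the binding protein LARP1 set their translation and stability. TSC2 is an inhibitor of mTOR signalling. Introns of many ribosomal protein genes also carry small nucleolar RNAs (snoRNAs), which guide the modification of ribosomal RNA.

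Levels are given in RPKM, read counts scaled by the authors to gene length and to the depth of the library. Each value was a whole number of reads times a constant of its gene and library, so reads, library totals and gene lengths could be recovered. The recovered lengths were those of the gene from end to end, introns included, so that RPKM is per kilobase of that span. Ratios of plain RPKM are given with exact (Clopper-Pearson) 95% binomial intervals on the recovered reads, which cover counting error only, since reads without molecular identifiers can be PCR copies of 1 molecule. Log2 ratios were taken of RPKM + 1, which understates the difference for genes of low level, over genes with a mean of at least 1 RPKM, and a gene was called higher or lower when that ratio reached 2-fold.

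The files hold identifiers without names. The definition lists each subunit in name order and RefSeq has 31 such small-subunit genes, so that order alone names the 31 small-subunit genes. For the large subunit, an increasing assignment of the identifiers to the 46 RefSeq genes by gene length, with the ends of the range fixed by the definition and differences in length capped at 30%, gave the name used below for 26 of 28 genes. The exceptions are those written here as Rpl19 and Rpl30, whose names remain uncertain. Rpl3, Rpl38, Rplp0, Rplp1 and Rplp2 were fixed in advance, so that their agreement was no check. An assignment tried first, with free ends and a cap of 2-fold, gave the name used for 21 of 28 and moved Rpl12, Rpl13a, Rpl14, Rpl15 and Rpl38 as well, so these 5 names are less certain than the rest. The fixed ends and the cap of 30% were chosen after that result. The names used were first written from knowledge of the identifiers. By length alone, the closest of these genes in RefSeq was the one of the same name for 31 of 59. The recovered length lay within 30% of RefSeq's for 54 of 59 genes, and differed further for Rps28 (2768 against 1527 bp), Rpl3 (14075 against 5626 bp), Rpl11 (25164 against 4040 bp), Rpl12 (3787 against 2334 bp) and Rpl19 (3783 against 8491 bp). For these 5 genes the span behind the RPKM is not that of RefSeq, and what this does to their values was not tested.

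Transcription starts of genes that stood at the ends of the heat shock comparisons are shown because the TOP motif lies there. Each line gives 30 bases from RefSeq (GRCm38.p6), 5′ to 3′ on the gene's strand, of which 15 precede the annotated start. Capitals mark a run of at least 5 pyrimidines that opens with C, reads only C or T after it and starts within 10 bases of the annotated start. A stretch that begins further upstream was counted from its first C within these bases. This was so at Rpl7a, where C and T precede the capitals. The first 4 genes had the highest chromatin ratios and the next 4 the lowest, and Rps26, Rpl38 and Rps15 had, with Rps15a, the highest cytoplasmic ratios.
Rps21, chr2:180257364-180257393, plus strand: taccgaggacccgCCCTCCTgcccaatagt
Rps15a, chr7:118116133-118116162, minus strand: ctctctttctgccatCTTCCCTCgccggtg
Rpl11, chr4:136053379-136053408, minus strand: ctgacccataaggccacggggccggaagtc
Rps28, chr17:33824548-33824577, minus strand: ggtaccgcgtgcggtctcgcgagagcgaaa
Rpl10a, chr17:28328456-28328485, plus strand: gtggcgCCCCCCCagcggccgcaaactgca
Rpl7a, chr2:26910792-26910821, plus strand: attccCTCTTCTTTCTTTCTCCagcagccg
Rps24, chr14:24490663-24490692, plus strand: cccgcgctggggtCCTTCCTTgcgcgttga
Rpl10, chrX:74270801-74270830, plus strand: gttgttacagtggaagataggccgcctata
Rps26, chr10:128626492-128626521, minus strand: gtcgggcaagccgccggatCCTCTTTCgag
Rpl38, chr11:114668565-114668594, plus strand: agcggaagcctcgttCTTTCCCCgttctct
Rps15, chr10:80292416-80292445, plus strand: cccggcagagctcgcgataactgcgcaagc

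Such a run was present at 26 of the 43 ribosomal protein genes with a start in the RefSeq table (60.5%), and at 34.4% of the other 26981 genes with a start there. Among the 4 genes with the highest chromatin ratios, Rps21 and Rps15a had a run and Rpl11 and Rps28 did not. Of the 4 genes with the lowest, Rpl10a, Rpl7a (counted from the edge of the window) and Rps24 had one and Rpl10 did not. The run of Rpl10a ended before the annotated start, and the rule counts such runs as well. Of the 4 with the highest cytoplasmic ratios, Rps26, Rpl38 and Rps15a had one and Rps15 did not. Rps21, Rpl10a and Rps24 have 2 starts each in the table, 1 of them with a run, and that start is shown. Among genes with the lowest cytoplasmic ratios, Rpl14 had a run at a start not shown, and Rpl23a had no start in the table. A match only describes the letters in this window, on the strand of the gene, and no match says nothing about the cap site in use. Across the 59 genes, the length of the longest run had a Spearman rank correlation of -0.256 with the chromatin ratio and 0.0308 with the cytoplasmic ratio, where a gene without a start in the table counted as 0.

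The 4 libraries held 18364642 reads (chromatin control), 19536459 (chromatin after heat shock), 8292312 (cytoplasm control) and 11131382 (cytoplasm after heat shock). Each ribosomal protein gene had between 71 and 2656 reads in a library. Their summed share of all reads was 0.157% (0.155 to 0.159) in chromatin control and 0.230% (0.228 to 0.232) in chromatin after heat shock. In the cytoplasm the share was 0.400% (0.395 to 0.404) in control and 0.299% (0.296 to 0.302) after heat shock. The share was thus highest in control cytoplasm and lowest in control chromatin, and the stressed libraries lay between these. The 10 genes with most reads took 21.4% and 32.6% of the chromatin libraries and 75.2% and 79.3% of the cytoplasmic libraries, in each case control first. Outside these 10 genes, the ribosomal protein genes made up 0.200% and 0.341% of the chromatin reads and 1.61% and 1.44% of the cytoplasmic reads. The part of these abundant RNAs in the comparisons was tested only through the scale alternatives given with each result. Markers of fibroblasts, of other cell types, of the heat shock response and of the fractions were not analysed here, because the files pair no names with identifiers.

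Among all genes kept, the ribosomal protein genes stood high in each library. Their median level was 5.39 RPKM in chromatin control, 8.63 in chromatin after heat shock, 16.2 in cytoplasm control and 12.0 in cytoplasm after heat shock. The median gene was at the 83.1st percentile of the kept genes in control chromatin and at the 93.5th percentile in control cytoplasm. Although ribosomes hold most of these proteins in equal number, the levels ranged widely, from 1.23 to 52.1 RPKM in chromatin control and from 1.82 to 120 RPKM in cytoplasm control. Because RPKM is per kilobase with introns, a gene of long introns has a lower RPKM for the same amount of spliced mRNA.

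The order of the genes differed between the fractions. In chromatin control the highest levels were those of Rpl7a (52.1 RPKM), Rpl12 (21.9), a protein at the base of the stalk of the large subunit, and Rpl10a (19.4), the protein of the mobile stalk near the exit site for tRNA. The lowest were Rpl11 (1.23 RPKM), Rps26 (2.12) and Rpl18 (2.17). In cytoplasm control Rps21 (120 RPKM), Rplp1 (90.8) and Rpl8 (85.1) were highest, and Rpl11 (1.82), Rps15a (4.04) and Rpl3 (5.09) lowest. After heat shock the highest in chromatin were Rpl7a (45.2 RPKM), Rpl12 (35.5) and Rpl4 (26.3), and the lowest Rpl18 (2.70), Rpl11 (3.75) and Rps4x (4.10). The 3 highest and the 3 lowest genes of the cytoplasm were those of control cytoplasm. Across the 59 genes, the Spearman correlation of levels was 0.981 between the cytoplasmic libraries, 0.856 between the chromatin libraries, and 0.425 between the fractions of control cells. These correlations describe genes within single libraries and share each gene's span.

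**Figure D1:**
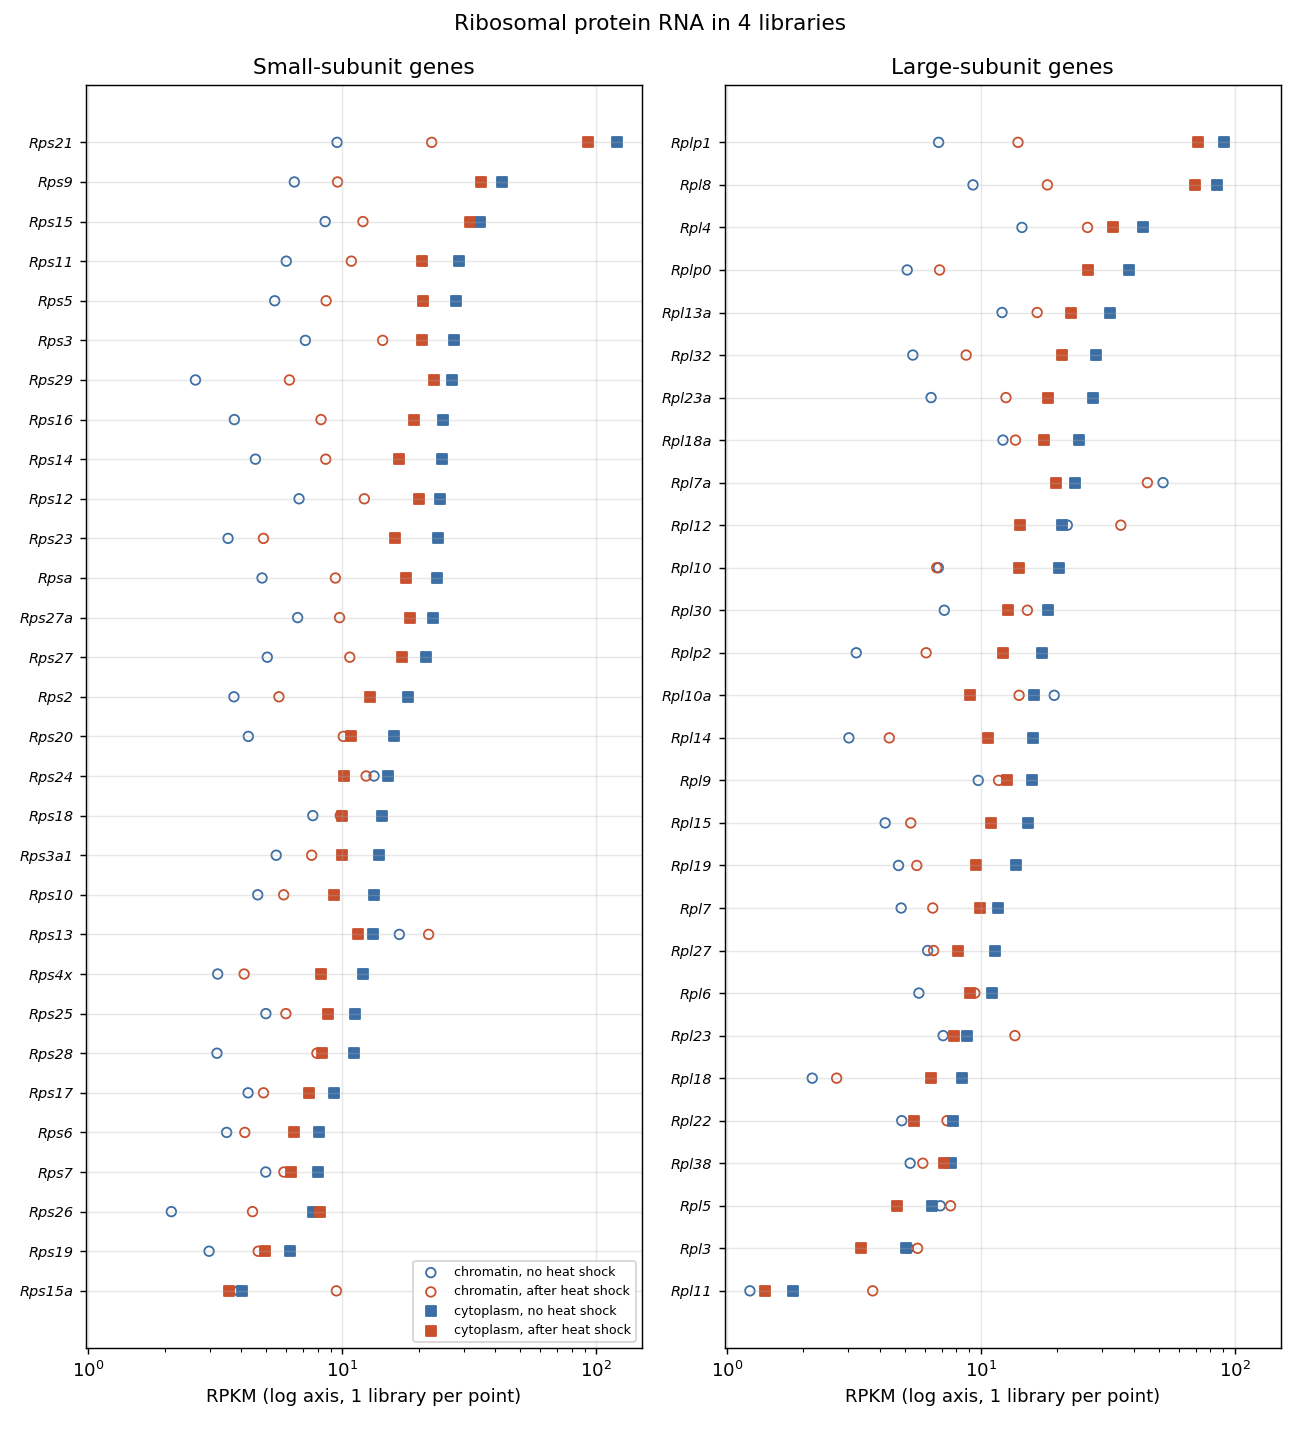
Levels of 58 of the 59 ribosomal protein genes (rows) in the 4 libraries (RPKM, log axis), 1 point per gene and library in separate panels for the subunits, and no replicates. Medians run from 5.39 RPKM in chromatin control to 16.2 in cytoplasm control, and the spread between genes is wide in every library.

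The first comparison asked how chromatin-bound RNA of these genes differed after heat shock and recovery. The level was higher after heat shock at 55 of 59 genes, and lower at Rpl10a, Rpl7a, Rps24 and Rpl10. Of all genes compared, 58.5% were higher. The median log2 ratio was 0.48, against 0.12 over all genes compared, and the middle range of the genes ran from 0.23 to 0.82. Their summed share of the library was 1.46-fold higher (1.44 to 1.48). At the 2-fold threshold 5 genes were higher (Rps21, Rps15a, Rpl11, Rps28 and Rps20), with 10.4% of all genes called in that direction. None was 2-fold lower, with 4.66% of all genes called so. In plain RPKM 12 ratios reached 2-fold, and the median ribosomal protein gene was then at the 68.3rd percentile. The share of all genes past 2-fold in plain RPKM is not given here.

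The median gene had a larger ratio than 73.2% of the genes compared. The counting interval lay above 1 for 51 genes, below 1 for 2 and held 1 for 6. The shares of all genes with such intervals are not given here, and an interval narrows as reads increase. Genes of similar span, over 1 to 5 kb, had a median of 0.30 (n = 779). Of these, 70.9% were higher, 16.8% at least 2-fold higher and 2.70% at least 2-fold lower. The direction depended on the scale, since with each library rescaled to the same RPKM sum the median was -0.087 and 26 of 59 genes were higher, while the median of all genes was -0.38 on that scale. With library totals taken without the 10 genes of most reads, the median was 0.70 and 58 genes were higher. The median of all genes was then 0.30. The count of genes at least 2-fold higher, 5 on the deposited scale, was 0 with equal RPKM sums, where 1 was 2-fold lower, 1 with the ratios centred on the all-gene median and 18 without the 10 genes of most reads. Shares of all genes past 2-fold on these other scales are not given here.

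**Figure D2:**
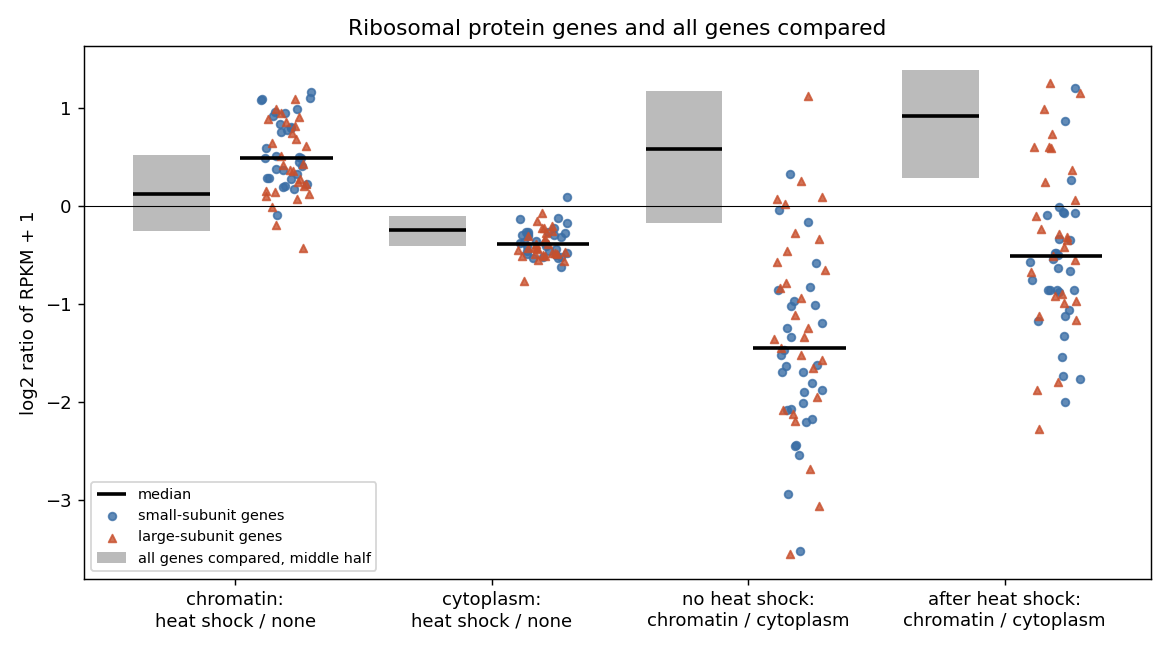
Log2 ratios of RPKM + 1 of the 59 ribosomal protein genes beside those of all genes compared, for both heat shock comparisons and both fraction comparisons, 1 point per gene, black lines for medians and grey boxes for the middle range of all genes. The median is 0.48 in chromatin against 0.12 for all genes, -0.39 in cytoplasm against -0.25, and -1.45 for chromatin over cytoplasm in control cells against 0.58. With each library rescaled to the same RPKM sum, the first and the third of these medians of the ribosomal protein genes change sign.

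Small-subunit genes held 4 of the 5 highest chromatin ratios. Rps21 (ENSMUSG00000039001), a protein of the small subunit next to Rpsa, had 9.53 RPKM in chromatin control, 22.5 in chromatin after heat shock, 120 in cytoplasm control and 92.9 in cytoplasm after heat shock. Its chromatin level was 2.36-fold higher after heat shock (1.99 to 2.81), from 187 and 469 reads. Rps15a (ENSMUSG00000008683), which binds the central domain of the small-subunit RNA, had 3.90 and 9.47 RPKM in chromatin and 4.04 and 3.57 in cytoplasm, control first, and was 2.43-fold higher in chromatin (2.24 to 2.63). Both Rps21 and Rps15a were thus higher in stressed than in control chromatin, but Rps21 stayed below its cytoplasmic levels in both conditions, whereas Rps15a exceeded its own after heat shock.

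Rps28 (ENSMUSG00000067288), at the exit of the mRNA channel, had 3.21 and 7.93 RPKM in chromatin and 11.1 and 8.31 in cytoplasm. It was 2.47-fold higher in chromatin after heat shock (2.06 to 2.98). Rps20 (ENSMUSG00000028234), in the head of the small subunit, had 4.26 and 10.1 RPKM in chromatin and 16.0 and 10.8 in cytoplasm, and was 2.37-fold higher in chromatin (2.08 to 2.69). At the other end, Rps24 (ENSMUSG00000025290), one of the genes mutated in Diamond-Blackfan anaemia, had 13.3 and 12.4 RPKM in chromatin and 15.1 and 10.2 in cytoplasm. Its chromatin level was 1.08-fold lower (0.996 to 1.16), an interval that holds 1.

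Large-subunit genes spanned both extremes. Rpl11 (ENSMUSG00000059291), which with Rpl5 carries the small ribosomal RNA of the large subunit and can bind Mdm2, the regulator of p53, had 1.23 and 3.75 RPKM in chromatin and 1.82 and 1.41 in cytoplasm. Its chromatin level was 3.04-fold higher after heat shock (2.77 to 3.35), the largest plain ratio of the 59 genes. The partner Rpl5 had 6.92 and 7.59 RPKM in chromatin, 1.10-fold higher (1.01 to 1.19). The span recovered for Rpl11 was several times that of RefSeq, as given above, and the part of this in its ratio was not tested.

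Rpl10a (ENSMUSG00000037805) had 19.4 and 14.1 RPKM in chromatin and 16.2 and 9.08 in cytoplasm. Its chromatin level was 1.38-fold lower after heat shock (1.25 to 1.52), the lowest ratio of the 59 genes. Rpl7a (ENSMUSG00000062647), which holds 4 annotated snoRNAs, had 52.1 and 45.2 RPKM in chromatin and 23.4 and 19.8 in cytoplasm, and was 1.15-fold lower in chromatin (1.09 to 1.22). Rpl10, a protein that joins the large subunit late in its maturation near the peptidyl transferase centre, had 6.79 and 6.70 RPKM in chromatin and a ratio of 0.985 (0.836 to 1.16). Rpl10a and Rpl7a were the genes whose counting interval lay below 1. The median log2 ratio was 0.50 for the 31 small-subunit genes and 0.39 for the 28 large-subunit genes, a gap well within the spread among genes of either subunit.

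**Figure D3:**
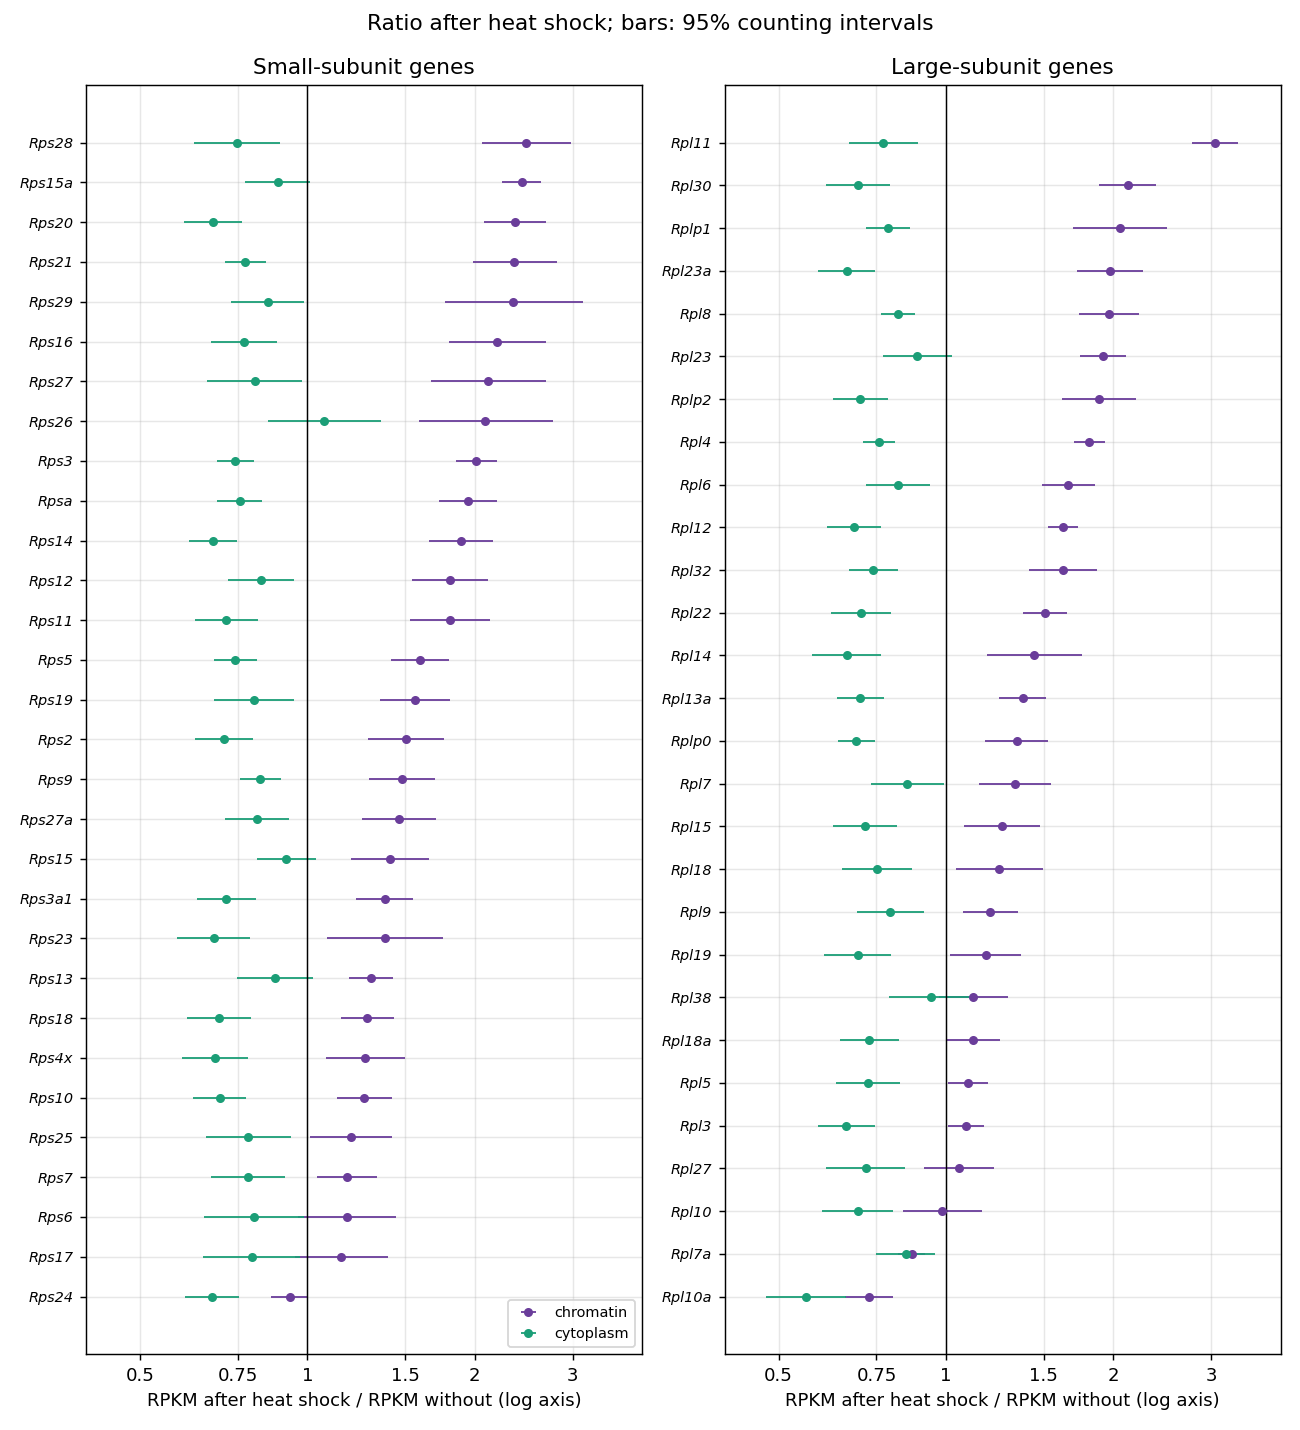
Plain RPKM ratio after heat shock over control for 58 of the 59 genes in chromatin and in cytoplasm (log axis), with exact 95% counting intervals as bars and 1 library per group. Over all 59 genes, 51 intervals in chromatin lie above 1 and 2 below, and in cytoplasm 53 lie below 1 and none above. The names Rpl19 and Rpl30 are uncertain. On the scale of equal RPKM sums, 33 of the 59 log2 ratios in chromatin lie below 0. Shares of all genes for these counts are not given here.

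The second comparison asked the same in the cytoplasm. Here 58 of 59 genes were lower after heat shock, where 83.8% of all genes compared were lower. The median log2 ratio was -0.39, against -0.25 over all genes and -0.30 over genes of over 1 to 5 kb (n = 767). The summed share of the 59 genes was 1.34-fold lower (1.32 to 1.36). No gene passed 2-fold, with 3.4% of all genes called higher and 2.44% called lower, and 2 genes, Rpl10a among them, were at least 1.5-fold lower, with 10% of all genes so called. Of genes of over 1 to 5 kb, 77.1% were lower and 17.1% at least 1.5-fold lower. The counting interval lay below 1 for 53 genes and held 1 for 6 (Rps13, Rps15, Rps15a, Rps26, Rpl23 and Rpl38). The share of all genes with an interval below 1 is not given here. The ratios were close to each other, with a middle range from -0.49 to -0.28.

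How these genes stood among all genes in the cytoplasm depended on the pseudocount, the filter and the scale. The median gene was at the 27.3rd percentile, at the 59.8th without a pseudocount and at the 9.22nd without a filter on low values. Equal RPKM sums put it at the 14.4th, and totals without the 10 genes of most reads at the 56.4th. On the scale of library totals without the 10 genes of most reads, the median log2 ratio was -0.17 and 50 genes were lower, and with equal sums it was -0.60 and all 59 were lower. The medians of all genes on these scales were -0.22 and -0.29.

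Rpl10a was also the lowest in the cytoplasm, 1.78-fold lower after heat shock (1.51 to 2.10), from the levels given above. Rpl23a (ENSMUSG00000058546), which lies at the mouth of the exit tunnel where the signal recognition particle docks, had 6.36 and 12.5 RPKM in chromatin and 27.5 and 18.3 in cytoplasm. It was 1.51-fold lower in the cytoplasm (1.34 to 1.69) and 1.97-fold higher in chromatin (1.72 to 2.26). Rpl14 had 3.02 and 4.36 RPKM in chromatin and 16.1 and 10.7 in cytoplasm, 1.51-fold lower in the latter (1.31 to 1.74).

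Rps26 (ENSMUSG00000025362), which lines the mRNA exit channel, was the gene with a cytoplasmic ratio above 1. It had 2.12 and 4.43 RPKM in chromatin and 7.62 and 8.18 in cytoplasm, and its cytoplasmic ratio of 1.07 (0.849 to 1.36) held 1. Rpl38, known for its part in skeletal patterning in mice, had 5.26 and 5.90 RPKM in chromatin and 7.60 and 7.15 in cytoplasm. Both of its ratios, 1.12 in chromatin (0.974 to 1.29) and 0.940 in cytoplasm (0.791 to 1.12), held 1. Rps15, near the decoding site, had 34.7 and 31.8 RPKM in cytoplasm, a ratio of 0.916 (0.811 to 1.04). With Rps15a, these 3 genes had the highest cytoplasmic ratios, and the counting interval of each held 1.

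Setting the comparisons side by side, 54 of 59 genes (91.5%) were above control in chromatin and below it in cytoplasm after heat shock, as were 2081 of 4473 genes compared (46.5%). With equal RPKM sums 26 of the 59 genes had these opposite signs and 33 were lower in both fractions, with the ratios centred on the all-gene median 44 had them, and without the 10 genes of most reads 49. Rps26 was higher in both, and Rpl10a, Rpl7a, Rps24 and Rpl10 were lower in both. The log2 ratio in chromatin was above that in cytoplasm at all 59 genes, where 73.3% of all genes showed this order, and with equal RPKM sums it was so at 55. The median difference was 0.90, against 0.37 over all genes and 0.59 over genes of over 1 to 5 kb (n = 766), of which 79.8% showed this order. At 22 of the 59 genes the difference reached 2-fold, with 16.5% of all genes and 26.2% of those of over 1 to 5 kb so called. None was 2-fold the other way, with 4.52% of all genes called. The count of 22 was 7 with equal RPKM sums, 5 with the ratios centred on the all-gene median and 21 without the 10 genes of most reads. In the same order, the median difference over all genes was -0.068, 0.007 and 0.50. Shares of all genes for the counts on these other scales are not given here. The difference uses 1 library of each kind and was not tested.

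Rps20 had the largest difference between the fractions, 1.60, with a chromatin ratio 3.49 times its cytoplasmic ratio. Rps21 (1.52), the gene written as Rpl30 (1.48) and Rps28 (1.47) followed. Rpl30 (ENSMUSG00000058600), as written here, had 7.17 and 15.2 RPKM in chromatin and 18.3 and 12.7 in cytoplasm. The smallest differences were those of Rpl7a (0.03), Rpl38 (0.22), Rpl10a (0.34) and Rps24 (0.43). Within the 59 genes, the size of the chromatin ratio described little of the cytoplasmic one, with a Pearson correlation of 0.244 and a Spearman correlation of 0.186 across genes, both of which share each gene's libraries.

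**Figure D4:**
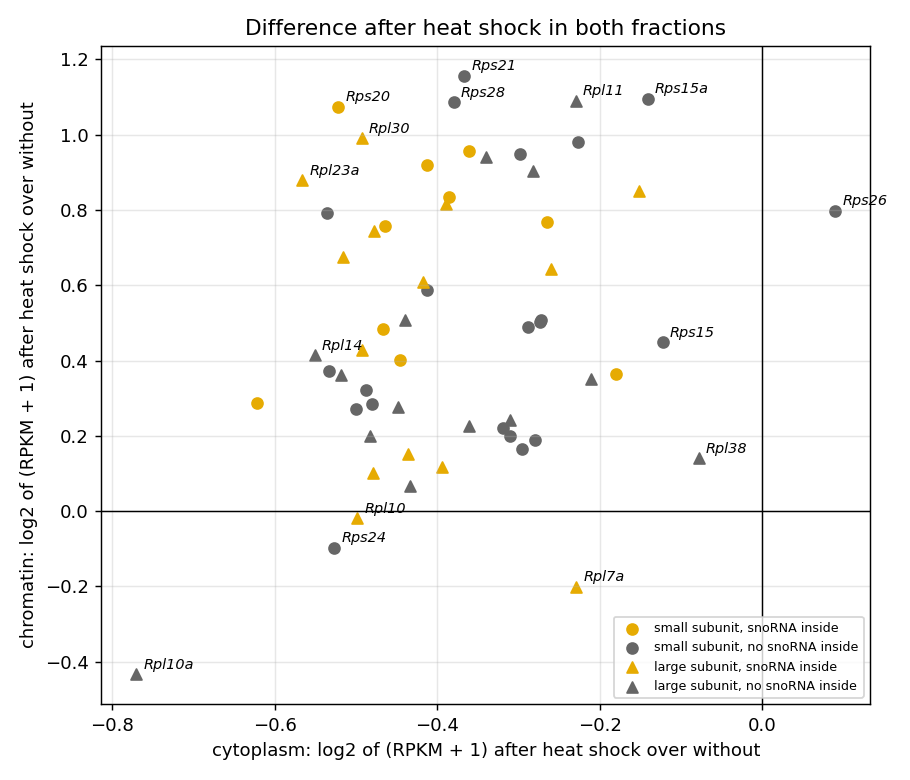
Log2 ratio of RPKM + 1 after heat shock over control in cytoplasm (x axis) and in chromatin (y axis), 1 point per gene, with subunit and annotated snoRNAs marked. Of the 59 genes, 54 lie in the upper left, above control in chromatin and below it in cytoplasm, and with equal RPKM sums 33 of the 59 chromatin ratios lie below 0. Rps26 stands at the right, and Rpl10a, Rpl7a, Rps24 and Rpl10 lie below the horizontal line.

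The third comparison set chromatin against cytoplasm in control cells. Levels were lower in chromatin at 53 of 59 genes, where 30.3% of all genes were lower. The median log2 ratio was -1.45, against 0.58 over all genes compared, and the median gene was at the 7.79th percentile. Of the 59 genes, 39 were at least 2-fold lower in chromatin, with 11.7% of all genes so called, and 1 (Rpl7a) was at least 2-fold higher, with 32.4% so called. Summed over the genes, the share of reads was 2.54-fold lower in chromatin (2.50 to 2.58). With each library rescaled to the same RPKM sum the direction of the median turned, to 0.080, with 31 genes higher, but the median over all genes was then 1.73. Without the 10 genes of most reads, the median was -3.10 and all 59 genes were lower, and the median over all genes was -0.54.

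The most cytoplasmic genes were short. Rplp1, an acidic protein of the stalk that recruits elongation factors, had 6.81 RPKM in chromatin and 90.8 in cytoplasm of control cells, 13.3-fold lower in chromatin (11.2 to 15.9). Rps21 was 12.6-fold lower (10.8 to 14.8) and Rps29, a zinc-binding protein of the head with 2.64 and 27.0 RPKM, 10.2-fold lower (7.89 to 13.4). Rpl8, close to the peptidyl transferase centre, had 9.30 and 85.1 RPKM and was 9.15-fold lower (8.18 to 10.3). The recovered spans of these 4 genes were 1255, 1069, 1465 and 2248 bp in the same order.

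At the other end, Rpl7a was 2.22-fold higher in chromatin than in cytoplasm (2.02 to 2.46). Rps13, with 16.8 RPKM in chromatin and 13.2 in cytoplasm, was 1.27-fold higher (1.11 to 1.45), and Rpl10a 1.20-fold (1.06 to 1.36). Rpl5, with 6.92 and 6.44 RPKM, had a ratio of 1.07 (0.962 to 1.20) that held 1. On the scale without the 10 genes of most reads Rpl7a too was lower in chromatin, with a log2 ratio of -0.51. Across the 59 genes, the Spearman correlation of span with the ratio of chromatin to cytoplasm was 0.42 in control cells and 0.477 after heat shock, so that longer genes were relatively more chromatin-bound. With plain RPKM ratios, in which span cancels, the correlations were 0.405 and 0.47. Over all genes of over 1 to 5 kb, the median log2 ratio in control cells was -0.37 (n = 768).

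After heat shock the median log2 ratio of the same comparison was -0.51, closer to 0 than in control cells on the deposited scale, but further from 0 with equal RPKM sums (0.57 against 0.080). Over all genes it was 0.92 and over genes of over 1 to 5 kb 0.25 (n = 778). The median ribosomal protein gene was at the 11.2th percentile. Levels were lower in chromatin at 46 of 59 genes, with 18.3% of all genes lower, and 13 genes were at least 2-fold lower, with 6.93% of all genes so called. Of genes of over 1 to 5 kb, 41.9% were lower and 13.1% at least 2-fold lower. At least 2-fold higher on the scale of RPKM + 1 were Rpl12, Rps15a and Rpl7a, with 45.8% of all genes and 26.7% of those of over 1 to 5 kb so called. Rpl11, whose levels are low, passed 2-fold as well in plain RPKM, so that 4 genes did. The share of all genes that did so in plain RPKM is not given here. With equal RPKM sums 48 genes were higher in chromatin, while without the 10 genes of most reads the median was -2.18 and all 59 were lower. The medians over all genes on these 2 scales were 1.59 and -0.045.

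Rpl12 had 35.5 RPKM in chromatin and 14.3 in cytoplasm after heat shock, 2.48-fold higher in chromatin (2.27 to 2.72), from a ratio of 1.05 in control cells (0.955 to 1.15). Rps15a was 2.65-fold higher (2.40 to 2.93), from 0.965 in control cells (0.855 to 1.09), and Rpl11 2.67-fold (2.39 to 2.98), from 0.676 (0.593 to 0.772). Rpl7a stood apart in that its ratio was nearly that of control cells, 2.28 (2.08 to 2.50). The most cytoplasmic genes were again Rplp1, 5.11-fold lower in chromatin (4.52 to 5.80), Rps21, 4.14-fold (3.71 to 4.62), Rpl8, 3.82-fold (3.51 to 4.16), and Rplp0, 3.84-fold (3.48 to 4.25). On the scale without the 10 genes of most reads, Rpl12 and Rps15a were lower in chromatin, with log2 ratios of -0.38 and -0.28.

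**Figure D5:**
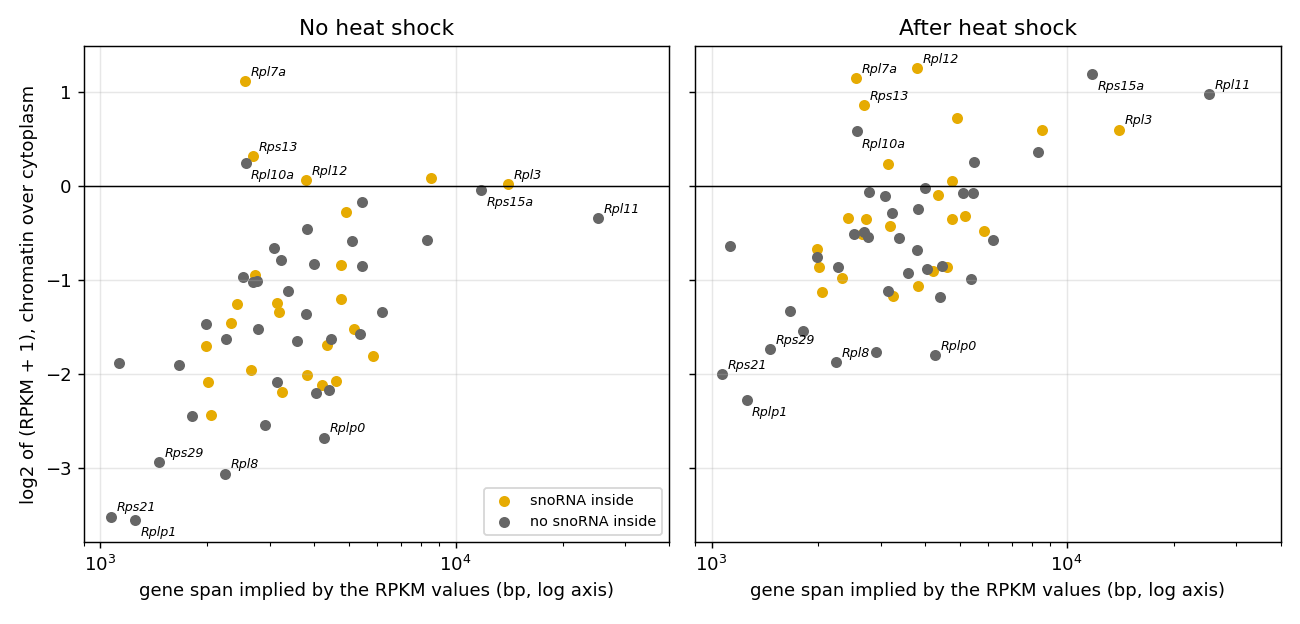
Log2 ratio of RPKM + 1 in chromatin over cytoplasm against the gene span recovered from the RPKM values (bp, log axis), for control cells and after heat shock, 1 point per gene. The Spearman correlation is 0.42 in control cells and 0.477 after heat shock, and Rplp1 and Rps21, short genes, lie lowest. The medians, -1.45 and -0.51, change sign when each library is rescaled to the same RPKM sum.

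By place in the ribosome, genes of 1 site had unequal ratios. These groups were chosen with the values known and are a description. Of the stalk proteins, Rplp0 had 5.12 and 6.87 RPKM in chromatin and 38.3 and 26.4 in cytoplasm, and Rplp2 had 3.23 and 6.08 in chromatin and 17.4 and 12.2 in cytoplasm. All 4 stalk genes (Rplp0, Rplp1, Rplp2 and Rpl12) were higher in chromatin after heat shock, with log2 ratios from 0.36 to 0.94, and lower in cytoplasm, from -0.52 to -0.34. This was not particular to the stalk, since 55 of the 59 genes were higher in chromatin and 58 lower in cytoplasm. Of all genes compared, 58.5% were higher in chromatin and 83.8% lower in cytoplasm. In control cells, though, Rpl12 had a chromatin to cytoplasm log2 ratio of 0.06 where the other stalk genes were lower, down to -3.55.

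Proteins that line the mRNA channel of the small subunit (Rps2, Rps3, Rps26 and Rps28) had chromatin log2 ratios after heat shock from 0.48 to 1.09, with a median of 0.86. Rps3, which also takes part in DNA repair, had 7.15 and 14.4 RPKM in chromatin and 27.6 and 20.5 in cytoplasm, 2.01-fold higher in chromatin (1.85 to 2.20). Rpl3, Rpl8 and Rpl10, close to the peptidyl transferase centre, had chromatin log2 ratios from -0.02 to 0.90. Rpl3 had 5.18 and 5.63 RPKM in chromatin, 1.09-fold higher (1.01 to 1.17), and Rpl8 had 9.30 and 18.3, 1.96-fold higher (1.74 to 2.22). Rps6, the substrate of the mTOR-dependent kinase S6K, had 3.50 and 4.13 RPKM in chromatin and 8.06 and 6.46 in cytoplasm, and its chromatin ratio of 1.18 (0.963 to 1.44) held 1.

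In RefSeq, 24 of the 59 genes hold 49 annotated snoRNAs within their span. These 24 genes had a median chromatin log2 ratio after heat shock of 0.66, and the 35 others had 0.37. Their summed shares of the chromatin library, though, were 1.46-fold and 1.47-fold higher after heat shock. At least 2-fold higher were 1 of the 24 (4.17%) and 4 of the 35 (11.4%), with 10.4% of all genes so called. In cytoplasm the medians were -0.44 and -0.34. The gene with most snoRNAs, Rpl4, whose protein reaches into the exit tunnel, holds 5 and had 14.5 and 26.3 RPKM in chromatin and 43.6 and 33.1 in cytoplasm, a 1.81-fold higher chromatin level (1.70 to 1.94). Rpl7a, with 4, had a lower one. The number of snoRNAs had a Spearman correlation of 0.0763 with the chromatin ratio. The share of a host gene's reads that came from its snoRNAs was not tested, as the files give 1 value per gene.

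Ribosomal protein genes are also the source of many processed pseudogenes. RefSeq names 217 pseudogenes after 46 of the 59 genes, with 23 for Rps12 and 14 for Rpl7a. How reads that match several such copies were counted is not given in the sources used here, so the levels of these genes are uncertain to that extent. In addition, 14 genes overlap another annotated gene, such as Rps27a, which encodes a fusion of ubiquitin and a small-subunit protein, with Clhc1, and Rpl5 with Dipk1a. Whether strand was used in counting is not given in the sources used here, and reads of such pairs may be mixed.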

How the data were processed

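RPKM values, 1 per Ensembl gene, were computed by the authors and deposited without genes that had no read. Per the submitters' processing notes, cutadapt and STAR were used with mouse build GRCm38, no version given. How reads were counted, with which annotation, whether by strand and with what rule for several matches is not given in the sources used here. Groups came from the sample titles. Library totals were recovered as common divisors of the inverse RPKM values (tolerance 0.002) and reads and spans as the fractions that give each value, tested on simulated data. Intervals were exact binomial (scipy 1.17.1). Genes, lists and rules were chosen with earlier results of these data known. Described by name were genes with at least 50 reads in each library compared: the 4 highest and the 4 lowest ratios of each comparison and the 3 highest and the 3 lowest levels of each library. The values of 1 such gene are not reported here. Rpsa, Rps2, Rps3, Rps4x, Rps6, Rpl23 and the other genes named for their place in the ribosome or their neighbours were added with their values known. Alternatives were other pseudocounts (0.1 RPKM or none), other filters, 3 other scales, a 1.5-fold threshold, and genes without annotated snoRNAs. Lists of other ribosomal protein genes, TOP mRNAs and markers could not be matched to identifiers and are not analysed here.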

Additional observations from a re-analysis of the deposited data

Results flagged for a closer look

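On the deposited scale, heat shock and control differed in opposite directions in the 2 fractions. The log2 ratio after heat shock was higher in chromatin than in cytoplasm at every one of the 59 ribosomal protein genes, with a median difference of 0.90. Of them, 54 were above control in chromatin and below control in cytoplasm. Over all genes compared, 73.3% showed the same order and 46.5% these opposite signs, and the median difference was 0.37. It was 0.59 over genes of over 1 to 5 kb. With equal RPKM sums 26 of the 59 genes had these opposite signs and 33 were lower in both fractions. Each fraction has 1 library per condition, so this difference was not tested. Among the genes with opposite signs, the largest differences were those of Rps20 (1.60), Rps21 (1.52), the gene written as Rpl30 (1.48) and Rps28 (1.47), and Rpl38, whose counting intervals held 1 in both fractions, had 0.22. The share of reads on the 10 genes with most reads also differed between the libraries, from 21.4% in chromatin control to 79.3% in cytoplasm after heat shock, and its part in the difference was tested only through other scales. The median difference was 0.88 with totals without these genes, 0.52 with equal RPKM sums and 0.54 with the ratios centred on the all-gene median. Over all genes it was 0.50, -0.068 and 0.007 in the same order.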

How the results depend on the processing

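No paired analysis was possible because each group has 1 library. Medians of the 59 genes are listed as chromatin after heat shock over control, the same in cytoplasm, chromatin over cytoplasm in control cells, the same after heat shock, and the difference between the fractions. They were 0.48, -0.39, -1.45, -0.51 and 0.90 as reported, 0.54, -0.43, -1.57, -0.58 and 0.96 with a pseudocount of 0.1 RPKM, and 0.55, -0.43, -1.58, -0.59 and 0.97 without one. With each library rescaled to the same RPKM sum they were -0.087, -0.60, 0.080, 0.57 and 0.52, so that 3 of the 5 changed direction. In the same order 29, 1, 25, 35 and 4 of the 59 genes changed sign, and those at least 2-fold lower in control chromatin as reported included Rpl4 (now 0.076), Rpl10 (0.080) and the gene written as Rpl30 (0.29). With ratios centred on the all-gene median they were 0.37, -0.14, -2.03, -1.43 and 0.54. With totals without the 10 genes of most reads they were 0.70, -0.17, -3.10, -2.18 and 0.88, and 3, 8, 6, 13 and 1 genes changed sign. Among genes whose reported chromatin level was 2-fold or more above the cytoplasmic one, Rpl7a was then at -0.51 in control cells and after heat shock, and Rps15a at -0.28 and Rpl12 at -0.38 after heat shock. Genes without annotated snoRNAs gave 0.37, -0.34, -1.47, -0.64 and 0.77. The filters on low values changed no median. Outside the 10 genes of most reads the share of reads was 0.200%, 0.341%, 1.61% and 1.44% in chromatin control, chromatin after heat shock, cytoplasm control and cytoplasm after heat shock. Of the 5 medians, those of the cytoplasm after heat shock and of the difference between fractions kept their sign under every alternative run. Counting error is small at these depths and says nothing about the spread between cultures, which 1 library per group leaves unknown.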
